A study of Homo sapiens with 8 samples.

Results

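The genes of MHC class I antigen presentation were followed in SAS cells, a human oral squamous carcinoma line, after transfection of 1 of 3 microRNA mimics or a negative control microRNA. The genes were HLA-B, HLA-C, HLA-E, HLA-F, B2M, TAP1, TAP2, PSMB8 and PSMB9, each taken as every gene probe of the array that carries its symbol. They comprised 9 of 43317 gene names and 15 of 58201 gene probes on a 1-colour Agilent expression array with probes of 60 bases, and all 15 probes passed the filter on dim signals. The 4 groups, with 2 arrays each, were the negative control (NC) and the mimics, named miR-629-3p, miR-874-3p and miR-210-3p. Every group received 25 nM of its small RNA, was grown in medium with puromycin and gave 100 ng of total RNA per array. Per the labels RNA was taken after 48 h, whereas the study's methods give a shorter time and another extraction kit and name the transfected cells as a GFP-carrying derivative of SAS. The mimics and the NC molecule came from different suppliers, and no source used here says that the 2 arrays of a group came from separate cultures, so the p-values measure the spread between these arrays, which may be technical. The study asked which genes change with microRNAs that were raised in cisplatin-resistant cells.

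Class I molecules show peptides from inside the cell to CD8 T cells. Proteasomes cut proteins into peptides, and PSMB8 and PSMB9 are catalytic subunits that interferon induces to form the immunoproteasome. TAP1 and TAP2 form the pump that carries peptides into the endoplasmic reticulum, where the heavy chains encoded by HLA genes fold with beta-2 microglobulin, the product of B2M. Most of these genes lie together in the major histocompatibility complex, and tumour cells often show reduced amounts of their products.

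The mimics carried 3 different seeds, the bases by which a microRNA pairs with its targets. They are shown because each group of arrays differs from NC by 1 of these molecules. The mature sequences are those of RefSeq (GRCh38.p14), and capitals mark the seed at bases 2 to 8.
miR-629-3p: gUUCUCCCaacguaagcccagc
miR-210-3p: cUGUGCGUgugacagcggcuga
miR-874-3p: cUGCCCUGgcccgagggaccga
The complement of the miR-629-3p seed, GGGAGAA, was found in 0 of the 15 probes and in 0.747% of all gene probes. That of miR-210-3p, ACGCACA, was also in 0 of the 15 and in 0.131% of all. That of miR-874-3p, CAGGGCA, was in 0 of the 15 and in 0.387% of all. A probe covers only 60 bases of a transcript, and whole transcripts were not used here.

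Levels below are log2 signals relative to the 75th percentile of the array, so a level of 0 equals that percentile. A gene was represented by its brightest probe, and a difference was called at an adjusted p under 0.05 over the 21283 genes tested. With miR-629-3p, 7 of the 9 genes were called lower than NC (HLA-B, HLA-C, HLA-F, TAP1, TAP2, PSMB8 and PSMB9) and 0 higher, beside 6.0% of all genes called lower and 11.3% called higher. With miR-210-3p, HLA-F and PSMB9 were called lower and no gene higher, against 1.93% lower and 4.83% higher over all genes. With miR-874-3p, limma called none of the 9, against 0.197% lower and 0.216% higher over all genes, although 4 of the 9 had an unadjusted p under 0.05. The median log2 difference of the 9 genes from NC was -0.40 after miR-629-3p, -0.35 after miR-210-3p and -0.19 after miR-874-3p, and that of all genes was 0.07, 0.09 and -0.003. All 3 comparisons use the same NC arrays. Only miR-874-3p shares a slide row with NC, so the differences after miR-629-3p and miR-210-3p cannot be told apart from a difference between rows. Across the 4 groups the F test called the same 7 genes as miR-629-3p against NC, beside 25.7% of all genes.

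**Figure D1:**
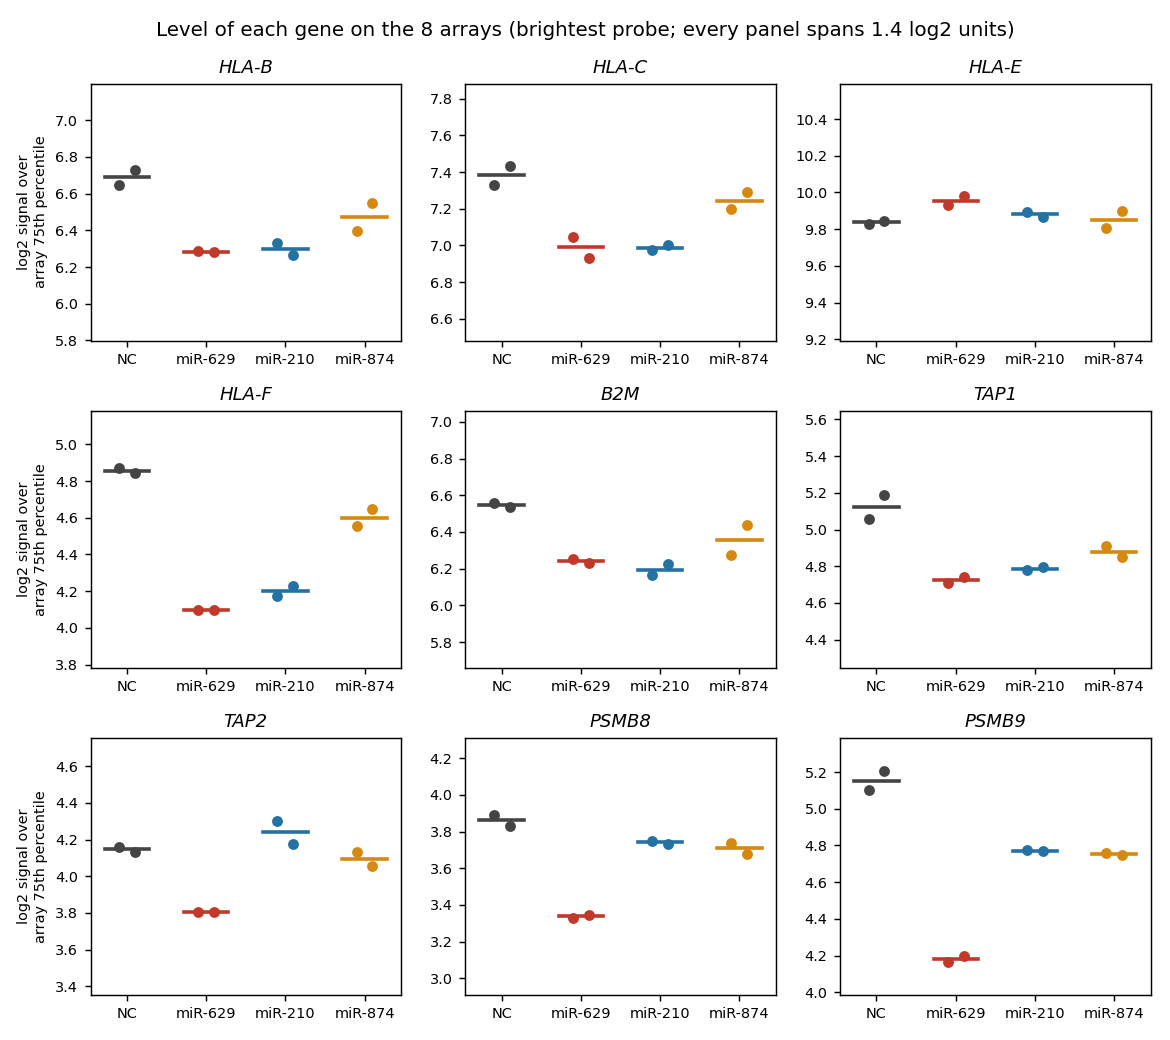
Each panel shows 1 gene, with the log2 signal over the array's 75th percentile on the vertical axis, points for the 2 arrays of each group and a line at their mean. NC lies highest for 7 genes, while HLA-E by its brightest probe and TAP2 have their highest mean in miR-629-3p and miR-210-3p.

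The NC arrays stood above both arrays of a mimic group without overlap for 8 of the 9 genes after miR-629-3p, for 7 after miR-210-3p and for 8 after miR-874-3p. The same held for 25.8%, 20.2% and 22.7% of all genes. The exception after miR-629-3p and miR-874-3p was HLA-E by its brightest probe, and after miR-210-3p the exceptions were HLA-E and TAP2. None of the 9 genes reached the study's own rule for pairs, an unadjusted p under 0.05 with a fold of at least 2, which 1.47%, 1.03% and 0.503% of all genes met in the lower direction in the same order of the mimics. Averaged over the 9 genes after centring each, the arrays gave 0.21 and 0.24 in NC, 0.02 and 0.07 after miR-874-3p, -0.05 and -0.06 after miR-210-3p, and -0.22 in both arrays after miR-629-3p.

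**Figure D2:**
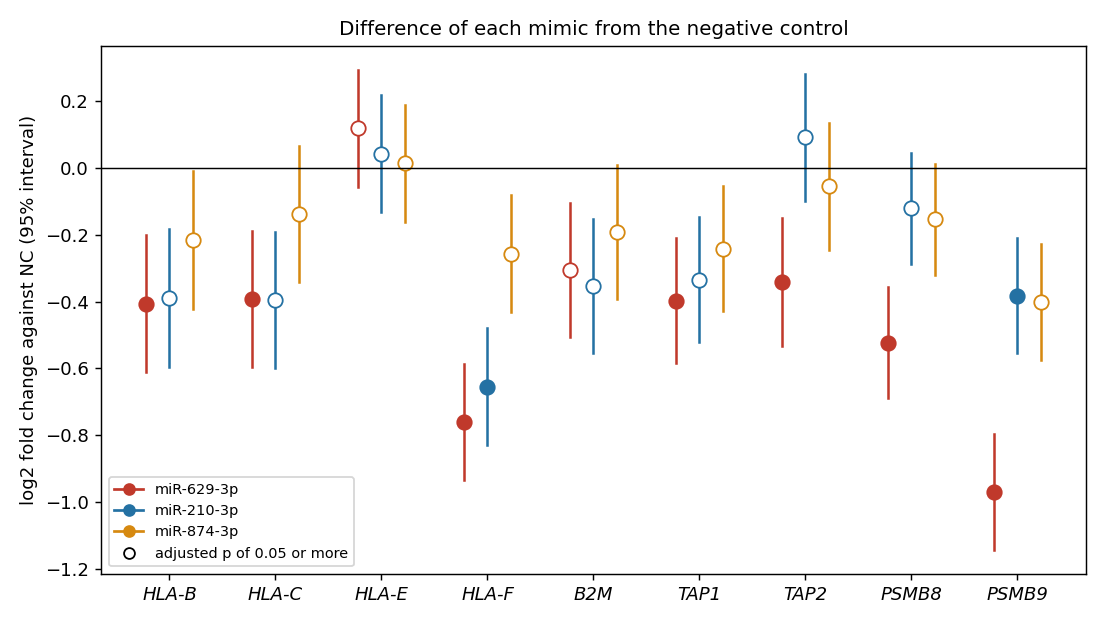
Log2 fold change of each gene against NC on the vertical axis with its 95% interval, by mimic, where filled points have an adjusted p under 0.05. PSMB9 after miR-629-3p, at -0.97, lies lowest, and the points of HLA-E lie between 0.01 and 0.12.

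The counts rest on single arrays. For miR-629-3p against NC, 2 of the 9 genes were called lower when either miR-629-3p array was left out and 3 when either miR-210-3p array was. There were 4 calls without NC replicate 1, 3 without NC replicate 2 and 8 without either miR-874-3p array. HLA-F and PSMB9 were called in each of those 8 fits. For miR-210-3p against NC, HLA-F and PSMB9 both lost the call when either miR-210-3p array or either NC array was left out, and PSMB9 also without either miR-629-3p array. In this comparison 5 genes were called without either miR-874-3p array.

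The classical heavy chains bind the peptide and are read by T cells. HLA-B (probe at chr6:31321663-31321722, hg19) stood at 6.65 and 6.73 in NC, at 6.29 and 6.28 after miR-629-3p, at 6.33 and 6.27 after miR-210-3p and at 6.40 and 6.55 after miR-874-3p. Both NC arrays were the highest, and the arrays of miR-629-3p overlapped those of miR-210-3p. It fell by 0.41 ± 0.08 (SE) on the log2 scale after miR-629-3p, which is 1.32-fold, with an adjusted p of 0.0287. The difference was -0.39 ± 0.08 after miR-210-3p (adjusted p = 0.0525) and -0.22 ± 0.08 after miR-874-3p (adjusted p = 0.293).

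HLA-C stood at 7.33 and 7.43 in NC, at 7.05 and 6.93 after miR-629-3p, at 6.97 and 7.0 after miR-210-3p and at 7.20 and 7.29 after miR-874-3p. As for HLA-B, NC was highest, miR-874-3p came next and the other two mimics were not separated. It fell by 0.39 ± 0.08 after miR-629-3p (adjusted p = 0.0304). The difference from NC was as large after miR-210-3p, at -0.39 ± 0.08, with an adjusted p of 0.0501.

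These probes do not tell the heavy chains fully apart. The HLA-C probe used here is placed at chr6:31321644-31321703 (hg19), the position of HLA-B, and 41 of its bases equal those of the HLA-B probe used here. The shared stretch is shown because it limits what HLA-B and HLA-C stand for on this array. Its 30 bases are given for the 3 overlapping probes, with the 1 base that differs in capitals.
HLA-B, A_33_P3424800: agtcaattcctggaaGttgagagagcaaat
HLA-C, A_33_P3424803: agtcaattcctggaaGttgagagagcaaat
HLA-B, A_33_P3379947: agtcaattcctggaaTttgagagagcaaat
The change between the HLA-B probes is T27G, counted from the 5′ end of A_33_P3379947, whose base comes first. HLA genes are highly polymorphic, and which alleles SAS cells carry was not examined. The second HLA-C probe, placed at chr6:31236617-31236676 (hg19), shared no run of 25 bases with any other gene probe. It gave -0.47 ± 0.10 after miR-629-3p (adjusted p = 0.0366 over all probes), -0.49 ± 0.10 after miR-210-3p (0.0526) and -0.21 ± 0.10 after miR-874-3p (0.392). The other HLA-B probes gave -0.49 and -0.70 after miR-629-3p and -0.54 and -0.67 after miR-210-3p, each with an adjusted p under 0.05.

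HLA-F encodes a non-classical heavy chain that serves as a ligand of receptors on natural killer cells. It stood at 4.87 and 4.84 in NC, at 4.10 on both miR-629-3p arrays, at 4.17 and 4.23 after miR-210-3p and at 4.55 and 4.65 after miR-874-3p. The 4 groups did not overlap. HLA-F fell by 0.76 ± 0.07 after miR-629-3p, or 1.69-fold (adjusted p = 0.00524), and by 0.65 ± 0.07 after miR-210-3p, or 1.57-fold (adjusted p = 0.0127). The difference after miR-874-3p was -0.26 ± 0.07 (adjusted p = 0.183). Its 2 probes lie apart in the coding sequence and are printed whole because neither shares a run of 25 bases with another gene probe.
HLA-F, A_33_P3379939: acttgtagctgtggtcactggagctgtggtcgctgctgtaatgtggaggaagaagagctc
HLA-F, A_33_P3379967: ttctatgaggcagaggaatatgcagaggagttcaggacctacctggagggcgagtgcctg
The first, at chr6:29693280-29693338 (hg19), gave the values above. The second, at chr6:29692114-29692173, differed from NC by -0.74 ± 0.09, -0.69 ± 0.09 and -0.29 ± 0.09 in the same order, the first and second of these with adjusted p of 0.00895 and 0.0181.

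HLA-E presents leader peptides of other class I chains to natural killer cells. Its probes gave opposite signs. The brighter one, at chr6:30460882-30460941 (hg19), stood at 9.83 and 9.85 in NC and at 9.93 and 9.98 after miR-629-3p, with 9.90 and 9.87 after miR-210-3p and 9.80 and 9.90 after miR-874-3p. Its differences from NC were 0.12 ± 0.07, 0.04 ± 0.07 and 0.01 ± 0.07, with adjusted p of 0.293, 0.734 and 0.944. The dimmer one, at chr6:30460729-30460788, stood at 5.10 and 5.24 in NC, at 4.89 and 4.79 after miR-629-3p, at 4.90 and 4.97 after miR-210-3p and at 4.98 and 5.05 after miR-874-3p. Here NC lay above all 6 other arrays, with differences of -0.33 ± 0.09, -0.23 ± 0.09 and -0.16 ± 0.09 and adjusted p of 0.0606, 0.167 and 0.461.

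The dimmer HLA-E probe is shown by 30 bases, because it is the one whose letters set HLA-E apart from other gene probes.
HLA-E, A_32_P460973: cttcctcacactgacctgtgttccttccct
The brighter probe shared a run of at least 25 bases with 5 probes of 5 other genes, and the dimmer one with none. With the dimmer probe standing for HLA-E, a choice made after the values were seen, 9, 8 and 9 of the 9 genes lay below NC in the 3 comparisons in place of 8, 7 and 8, and the counts of genes called were the same.

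B2M encodes the light chain that all class I molecules share and lies on chromosome 15, outside the complex. It was measured by 1 probe (chr15:45007773-45007832, hg19) spotted 10 times per array, with an SD over spots of 0.034 to 0.063. It stood at 6.56 and 6.54 in NC, at 6.25 and 6.23 after miR-629-3p, at 6.16 and 6.23 after miR-210-3p and at 6.28 and 6.44 after miR-874-3p. NC was highest and no mimic array reached it. The differences were -0.31 ± 0.08 after miR-629-3p (adjusted p = 0.0554), -0.35 ± 0.08 after miR-210-3p (0.0607) and -0.19 ± 0.08 after miR-874-3p (0.328), so that B2M was called with none of the mimics. The difference after miR-629-3p was called when either miR-874-3p array was left out (adjusted p = 0.0316 and 0.0317).

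TAP1 forms the peptide pump with TAP2. TAP1 (chr6:32813210-32813269, hg19) stood at 5.06 and 5.19 in NC, at 4.71 and 4.74 after miR-629-3p, at 4.78 and 4.79 after miR-210-3p and at 4.91 and 4.85 after miR-874-3p. All mimic arrays lay below NC. It fell by 0.40 ± 0.08 after miR-629-3p, or 1.32-fold (adjusted p = 0.024). The difference was -0.33 ± 0.08 after miR-210-3p (adjusted p = 0.0589) and -0.24 ± 0.08 after miR-874-3p (0.22).

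TAP2 followed another order. By its brighter probe (chr6:32793222-32793281, hg19) it stood at 4.16 and 4.13 in NC, at 3.80 and 3.81 after miR-629-3p, at 4.30 and 4.17 after miR-210-3p and at 4.13 and 4.05 after miR-874-3p. Only the miR-629-3p arrays stood clearly apart. TAP2 fell by 0.34 ± 0.08 after miR-629-3p (adjusted p = 0.0365), and its difference from NC was 0.09 ± 0.08 after miR-210-3p (95% interval -0.10 to 0.28) and -0.05 ± 0.08 after miR-874-3p (-0.24 to 0.14). Its dimmer probe (chr6:32789804-32789863) was well above background on 4 arrays, both of NC and both of miR-210-3p, and its NC arrays differed widely, at 0.50 and -2.33. It passed the filter through those 2 groups alone. Signals below the dimmest one called well above background on their array were raised to it. The NC mean was then at least 6.75-fold above miR-629-3p and at least 4.42-fold above miR-874-3p. Neither lower limit was tested. These limits rest on 1 array, since without NC replicate 1 they were 2.53-fold and 1.65-fold.

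**Figure D3:**
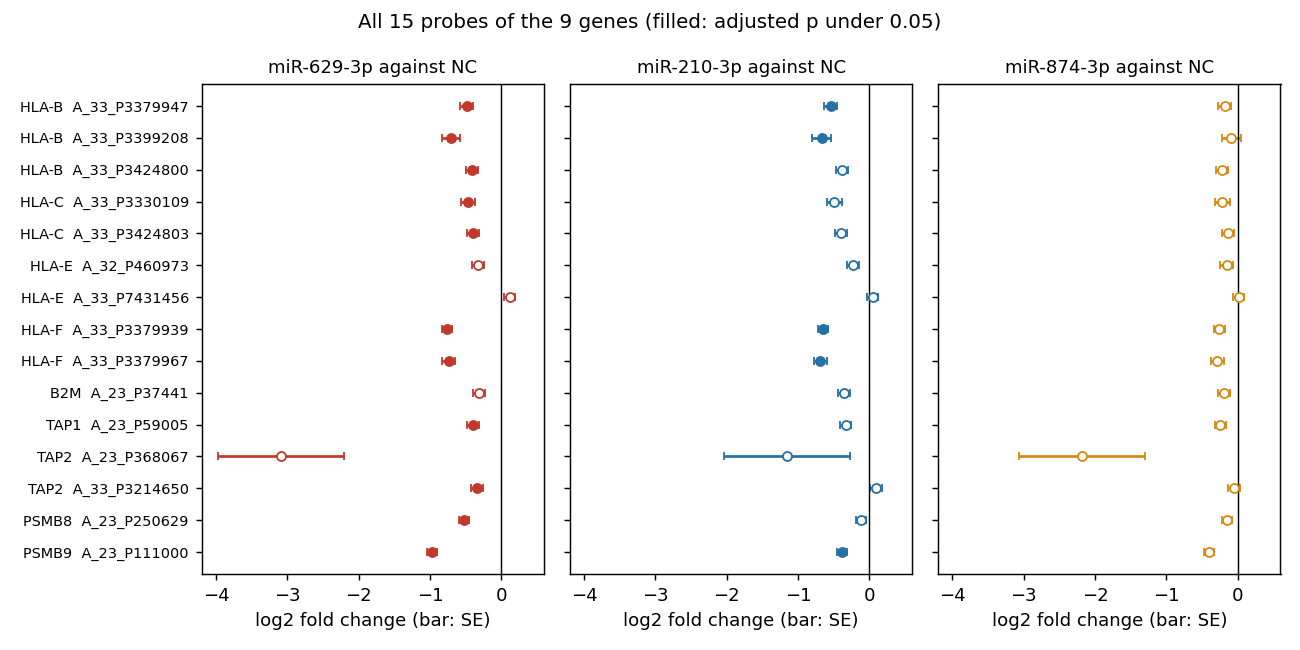
Log2 fold change against NC of each of the 15 probes on the horizontal axis with its SE as a bar, by mimic, where filled points have an adjusted p under 0.05 over all probes. Probes of 1 gene lie close to each other except for HLA-E, whose signs differ, and TAP2, whose dim probe has wide bars.

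PSMB9 showed the largest difference among the 9 genes. This immunoproteasome subunit (chr6:32823918-32823977, hg19) stood at 5.10 and 5.20 in NC, at 4.17 and 4.20 after miR-629-3p, at 4.78 and 4.77 after miR-210-3p and at 4.76 and 4.75 after miR-874-3p. The miR-629-3p arrays were lowest, the other two mimics lay together and NC was highest. PSMB9 fell by 0.97 ± 0.07 after miR-629-3p, or 1.96-fold (adjusted p = 0.00325), and by 0.38 ± 0.07 after miR-210-3p, or 1.30-fold (adjusted p = 0.0383). The difference after miR-874-3p was of like size, -0.40 ± 0.07, with an adjusted p of 0.0896.

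PSMB8, another catalytic subunit of the immunoproteasome, stood at 3.89 and 3.83 in NC, at 3.33 and 3.34 after miR-629-3p, at 3.75 and 3.73 after miR-210-3p and at 3.74 and 3.68 after miR-874-3p. It fell by 0.52 ± 0.07 after miR-629-3p, or 1.44-fold (adjusted p = 0.0098). The differences after miR-210-3p, -0.12 ± 0.07, and miR-874-3p, -0.15 ± 0.07, had adjusted p of 0.31 and 0.341. The probes of both subunits lie in coding sequence and are printed because the largest change rests on 1 probe per gene. Neither shared a run of 25 bases with another gene probe.
PSMB9, A_23_P111000: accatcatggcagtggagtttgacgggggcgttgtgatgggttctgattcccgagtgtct
PSMB8, A_23_P250629: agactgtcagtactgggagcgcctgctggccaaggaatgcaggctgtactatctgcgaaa

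The mimics were also compared with each other. On the slide miR-874-3p shares a row with NC, and the arrays of miR-629-3p share one with those of miR-210-3p, so these pairs were compared within a row, while a difference of miR-629-3p or miR-210-3p from NC or from miR-874-3p cannot be told apart from a difference between rows. Against miR-210-3p, miR-629-3p gave lower PSMB9 (-0.59 ± 0.07, adjusted p = 0.0065), PSMB8 (-0.40 ± 0.07, 0.0141) and TAP2 (-0.43 ± 0.08, 0.0164), which are 3 of the 9 genes beside 11.7% of all genes called lower. The heavy chains, B2M and TAP1 differed between these mimics by -0.11 to 0.08, with adjusted p of 0.335 to 0.985. For HLA-B the 95% interval of this difference was -0.22 to 0.19 and for B2M -0.15 to 0.25. Without miR-629-3p replicate 1 none of the 9 was called in this comparison, and without miR-629-3p replicate 2 or either miR-210-3p array 1 was.

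Against miR-874-3p, on the other row, miR-629-3p gave lower HLA-F (-0.50 ± 0.07, adjusted p = 0.0109), PSMB8 (-0.37 ± 0.07, 0.0204) and PSMB9 (-0.57 ± 0.07, 0.00811), 3 of the 9 genes beside 5.82% of all genes called lower. TAP2 had a difference of -0.29 ± 0.08 with an adjusted p of 0.0561. Without either miR-629-3p array none of the 9 was called. Between miR-210-3p and miR-874-3p only HLA-F was called, lower after miR-210-3p by 0.40 ± 0.07 on the log2 scale (adjusted p = 0.028), beside 3.22% of all genes. That call held without miR-874-3p replicate 1 and was lost when any other array was left out.

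Among themselves the genes followed several orders of the groups. HLA-B, HLA-C, HLA-F, B2M and TAP1 were highest in NC, next after miR-874-3p, and lowest after miR-629-3p or miR-210-3p. This order sets the groups of one slide row above those of the other, so mimic and row cannot be told apart in it. Within the row of NC, limma called none of the 9 genes after miR-874-3p, where 4 had an unadjusted p under 0.05. Both miR-874-3p arrays lay below both NC arrays for 8 of the 9, beside 22.7% of all genes. PSMB8 and PSMB9 were lowest after miR-629-3p, and miR-210-3p and miR-874-3p did not differ beyond their spread, with differences of 0.03 ± 0.07 and 0.02 ± 0.07. TAP2 was highest after miR-210-3p and lowest after miR-629-3p, and HLA-E by its brightest probe was highest after miR-629-3p and lowest in NC. Over the 8 arrays Pearson's r between HLA-B and B2M was 0.952 and between PSMB8 and PSMB9 0.968, and that between B2M and TAP2 was 0.133. The arrays share groups, so these values are descriptions.

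The promoters of these genes are shown because 7 of the genes were called lower after miR-629-3p and because class I promoters share known elements. RefSeq promoter windows (GRCh38.p14) at the annotated gene start were matched for 8 genes, and HLA-E had no entry. Both strands of the 250 bases before the start were searched for AANNGAAA, the core bound by interferon regulatory factors, for GGGGATTCC, a kappa B site, and for CCAAT, the box bound by nuclear factor Y. AANNGAAA was found in 6 of the 8 windows (HLA-B, HLA-C, HLA-F, B2M, TAP1 and TAP2), against 20.3% of all 35116 promoters. In B2M, TAP1 and TAP2 it occurred as overlapping matches. CCAAT was found in 6 of 8, against 32.0%, and GGGGATTCC in HLA-B only, against 0.253%. None of the 3 was found in the window of PSMB8, and that of PSMB9 held only CCAAT, at position -243.

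Bases -190 to -41 before the start are given for 3 heavy chains and for the neighbouring TAP1 and PSMB9, with the motifs on either strand in capitals.
HLA-B, chr6:31357220-31357369, minus strand: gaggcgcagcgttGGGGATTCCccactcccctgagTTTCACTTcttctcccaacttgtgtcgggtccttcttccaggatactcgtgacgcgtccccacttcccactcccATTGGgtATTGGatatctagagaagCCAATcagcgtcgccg
HLA-C, chr6:31272133-31272282, minus strand: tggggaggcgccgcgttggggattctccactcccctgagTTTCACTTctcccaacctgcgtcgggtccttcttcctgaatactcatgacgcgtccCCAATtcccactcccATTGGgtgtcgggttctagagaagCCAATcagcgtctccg
HLA-F, chr6:29723244-29723393, plus strand: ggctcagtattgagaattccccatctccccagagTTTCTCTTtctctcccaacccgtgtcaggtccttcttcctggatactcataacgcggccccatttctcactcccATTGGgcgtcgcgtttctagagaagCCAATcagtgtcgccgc
TAP1, chr6:32853745-32853894, minus strand: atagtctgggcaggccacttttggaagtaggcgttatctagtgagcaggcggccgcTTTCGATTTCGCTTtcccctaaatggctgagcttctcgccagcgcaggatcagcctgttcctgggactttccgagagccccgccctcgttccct
PSMB9, chr6:32854002-32854151, plus strand: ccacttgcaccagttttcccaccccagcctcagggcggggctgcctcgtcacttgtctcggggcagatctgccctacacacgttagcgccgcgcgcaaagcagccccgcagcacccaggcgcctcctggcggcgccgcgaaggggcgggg
The AANNGAAA match of HLA-B, HLA-C and HLA-F began at -155, -151 and -156. TAP1 and PSMB9 are transcribed away from each other from starts that lie 488 bases apart. The AANNGAAA matches of TAP1, at -134 and -128 from its own start, lie between these starts. They fall outside the 250 bases searched for PSMB9, so the search does not show that the region before PSMB9 lacks this motif. After miR-629-3p TAP1 fell by 0.40 and PSMB9 by 0.97 on the log2 scale. A match is a description of letters, and binding was not measured.

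Other genes of the pathway were described by lists. Their counts stand beside 6.0% of all genes called lower and 11.3% called higher after miR-629-3p, and 1.93% and 4.83% after miR-210-3p. Of 7 other class I heavy chains and class I-like molecules tested, 2 were lower and 1 higher after miR-629-3p, 2 were lower after miR-210-3p and limma called none after miR-874-3p, where 4 had an unadjusted p under 0.05. HLA-G, a non-classical heavy chain, fell by 0.49 ± 0.09 after miR-629-3p and by 0.48 ± 0.09 after miR-210-3p, and the pseudogene HLA-J by 0.48 ± 0.08 and 0.45 ± 0.08. MR1, which presents microbial vitamin metabolites, rose by 0.44 ± 0.10 after miR-629-3p. Probes of 1 class I gene can bind RNA of another, and how far they did was not tested.

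After miR-629-3p 6.0% of all genes were called lower and 11.3% higher. Of the 7 other genes of the immunoproteasome and the proteasome activators, 3 were lower and 0 higher with that mimic, with a list median of -0.22. They were PSMB10, the remaining inducible catalytic subunit, at -0.55 ± 0.08 (adjusted p = 0.0144), PSME2, a subunit of the interferon-inducible activator, at -0.53 ± 0.08 (0.0156), and PSME4 at -0.46 ± 0.11 (0.0422). Limma called none of the 7 after the other mimics, where 3 (miR-210-3p) and 2 (miR-874-3p) had an unadjusted p under 0.05. Of the 14 subunits of the constitutive proteasome core limma called none with any mimic against NC, with 2, 2 and 1 at an unadjusted p under 0.05 and list medians of -0.08, 0.11 and -0.05. Of the 9 genes of peptide loading and trimming, only CALR, an endoplasmic reticulum chaperone, was called, lower after miR-629-3p by 0.41 ± 0.08 (adjusted p = 0.0225). In this list 6 genes lay below NC with that mimic, 3 had an unadjusted p under 0.05 by limma and the median was -0.16. All 9 lay below NC after miR-874-3p, where 4 had an unadjusted p under 0.05 and the list median was -0.24. The counts for miR-210-3p were 4 below NC and 2 at an unadjusted p under 0.05, with a list median of 0.08.

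**Figure D4:**
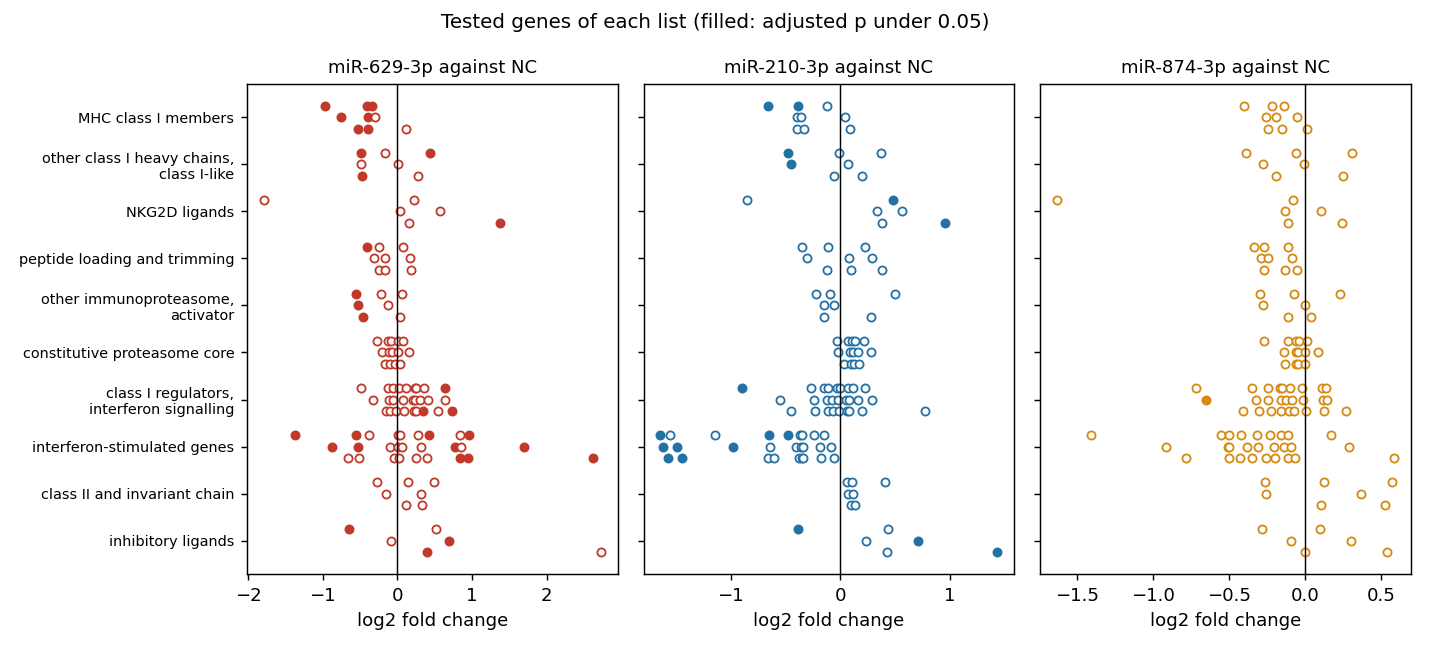
Log2 fold change against NC on the horizontal axis for every tested gene of each list, by mimic (vertical offsets only separate points, and the horizontal scale differs between panels), where filled points have an adjusted p under 0.05. The 9 class I genes are the top row, and the constitutive proteasome core, with no filled point, lies closest to 0.

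Interferon is a known inducer of class I genes, so its pathway was described as well. Of 27 transcription factors and signalling genes, 3 were higher after miR-629-3p, among them IFNAR1, a receptor chain, by 0.73 ± 0.10 and the kinase JAK2 by 0.63 ± 0.16. This is a share close to the 11.3% of all genes called higher with that mimic. IRF9, a transcription factor of interferon signalling, fell by 0.89 ± 0.10 after miR-210-3p, and SOCS3, an inhibitor of the pathway, fell by 0.65 ± 0.08 after miR-874-3p. NLRC5, the class I transactivator, chosen after its values were seen, gave 0.24 ± 0.11, -0.11 ± 0.11 and -0.16 ± 0.11 with the 3 mimics, with adjusted p of 0.181, 0.564 and 0.526. Of 27 interferon-stimulated genes, 7 were higher and 4 lower after miR-629-3p, where the list median was 0.06, beside 11.3% of all genes higher and 6.0% lower. DDX60 rose by 2.63 ± 0.38, OASL by 1.69 ± 0.33 and IFIT1 by 0.95 ± 0.14, while IFITM1 fell by 1.38 ± 0.11. With miR-210-3p 8 of the 27 were lower and 0 higher, with a list median of -0.40, beside 1.93% of all genes lower. OASL fell by 1.62 ± 0.33, IFI44 by 1.57 ± 0.16 and OAS2, detected on 1 of the 2 miR-210-3p arrays, by 1.49 ± 0.25, and a further one of the 8, IFI44L, was not well above background in either group. With miR-874-3p limma called none of them, 12 had an unadjusted p under 0.05 and the list median was -0.31. Beside these counts, 7 of the 9 class I genes were lower and 0 higher after miR-629-3p, and 2 were lower and 0 higher after miR-210-3p.

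Molecules read by lymphocytes beside class I were listed too. Among all genes 11.3% were called higher and 6.0% lower after miR-629-3p, and 4.83% and 1.93% after miR-210-3p. Of 6 ligands of the natural killer receptor NKG2D, ULBP1 rose by 1.38 ± 0.19 after miR-629-3p and by 0.96 ± 0.19 after miR-210-3p, and MICB rose by 0.48 ± 0.09 after miR-210-3p. Of 6 inhibitory ligands, CD274, which encodes PD-L1, rose by 0.69 ± 0.16 and 1.43 ± 0.16 with these mimics, PVR rose by 0.40 ± 0.09 and 0.71 ± 0.09, and CD47 fell by 0.65 ± 0.07 and 0.38 ± 0.07. After miR-874-3p limma called none of either list, with 0 and 2 at an unadjusted p under 0.05. Limma called none of the 7 class II genes tested with any mimic, with 0, 0 and 2 at an unadjusted p under 0.05.

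The genes outside the set whose levels followed the mean of the 9 most closely over the 8 arrays, among 2845 that ranged over at least 1 log2 unit, were FAM46A (Pearson r = 0.976), PRSS53 (0.970), IVNS1ABP (0.95), UBD (0.946) and the transcript of probe A_33_P3407049 (0.932). UBD, a ubiquitin-like modifier that interferon induces, had the largest range of the 5, with mean levels of -0.16 in NC, -2.43 after miR-629-3p, -1.79 after miR-210-3p and -0.67 after miR-874-3p.

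Some measures of the arrays moved with the groups. The share of probes well above background was 42.2% and 42.9% in NC, 48.4% and 49.8% after miR-629-3p, 46.6% and 47.6% after miR-210-3p and 43.2% and 46.8% after miR-874-3p, and no spot was saturated. All 11 squamous epithelial markers on the array were detected, 10 of them on all 8 arrays, and their summed level was 9.28 to 9.37 in NC, 9.11 on both arrays after miR-629-3p, 8.91 to 8.92 after miR-210-3p and 9.17 to 9.34 after miR-874-3p. After miR-629-3p 8 of these 11 lay below NC, with a list median of -0.39, and 6 had an unadjusted p under 0.05 by limma. Of them the keratins KRT14 and KRT17 were called, lower by 0.62 ± 0.14 and 0.63 ± 0.12. KRT5 differed from NC by 0.02 ± 0.19 and EPCAM by 0.01 ± 0.08. After miR-210-3p 8 of the 11 lay below NC, with a list median of -0.48, and 7 of the 11 had an unadjusted p under 0.05. Limma called 4 lower, KRT5 by 1.21 ± 0.19, KRT14 by 1.07 ± 0.14, KRT17 by 0.98 ± 0.12 and SFN by 0.92 ± 0.10. EPCAM was called higher, by 0.42 ± 0.08. Among all genes 6.0% were called lower after miR-629-3p, and 1.93% lower and 4.83% higher after miR-210-3p. Limma called none of the 11 after miR-874-3p, where 5 lay below NC, the list median was 0.03 and 3 had an unadjusted p under 0.05. Of 10 leukocyte markers on the array 6 (CD4, CSF1R, CD14, CD8A, PTPRC and CD3D) were detected on all 8 arrays and the B-cell marker MS4A1 on none. Their summed level was 5.63 to 5.69 in NC and 5.80 to 5.84 after miR-629-3p. It was 5.61 to 5.69 after miR-210-3p and 5.63 to 5.64 after miR-874-3p. This sum is mostly CD4, whose mean over the 8 arrays was 5.48, while the next brightest, CSF1R, had 1.60. Of 7 fibroblast markers 1 was detected on all arrays and 5, DCN, LUM, COL1A2, COL3A1 and PDGFRA, on none. Their summed level was -0.79 on both arrays of NC, -0.62 to -0.58 after miR-629-3p, -0.09 to 0.99 after miR-210-3p and -0.72 to -0.67 after miR-874-3p. PDGFRB rose by 0.52 ± 0.08 after miR-629-3p and by 0.53 ± 0.08 after miR-210-3p. COL1A1 was detected on all 6 mimic arrays and on neither NC array, so it passed the filter through the mimic groups alone. It was called with none of the mimics. Of 4 endothelial markers measured on every array 2 were detected on all 8, with a summed level of 0.57 to 0.75 in NC, 1.34 to 1.45 after miR-629-3p, 0.48 to 0.71 after miR-210-3p and 0.35 to 0.82 after miR-874-3p. The part of these measures in the lower class I signals was not tested, and in these bulk samples fewer cells of a type and less RNA per cell cannot be told apart.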

How the data were processed

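Total RNA of 8 samples was labelled and scanned on 1 slide of Agilent arrays (probe positions in hg19), 2 arrays for each of 4 groups. Per the file headers the authors' spot intensity (processed signal) came from Agilent Feature Extraction 11.5.1.1. The deposited value table holds log2 values, and 99.976% of them lay within 0.05 of the scanner-derived values after an offset of 0.0058 to 0.00755 per array.

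Spots of a probe were averaged, spots flagged as outliers (87 to 346 of 60901) were left out, and log2 intensity was expressed relative to the 75th percentile of each array. Probes needed a value on all 8 arrays and, in 1 group or more, detection well above background on each of its arrays. The brightest probe stood for a gene name. Groups were taken from the sample labels. All genes were fitted over the 8 arrays with limma 3.58.1 (R 4.3.3, lmFit and eBayes, no covariates, 4 residual degrees of freedom), Benjamini-Hochberg adjusted over 21283 genes. The test was checked on simulated data only for changes of at least 1 log2 unit. Every called difference of the 9 class I genes from NC was smaller than that. The number of arrays limits the precision.

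The genes and lists were chosen with earlier results of these data known. Beside them, called genes of each list (at most 4 per comparison, by size) and the 5 genes most alike were named. Some genes that the lists hold, and 1 probe sequence, are not reported here. Tried alternatives were the background correction, scaling, floor, detection filter, probe choice, samples fitted, replicate block, other call rules and leaving out each array. With 1 slide, slide could not be used as a block.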

Additional observations from a re-analysis of the deposited data

How the results depend on the processing

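Counts are of the 9 genes called unless stated. For miR-629-3p against NC (7 called), 11 of the 15 probes were called with every probe counted, 3 genes with only the groups compared fitted, 0 under the study's rule of 2-fold with unadjusted p and 0 by the methods' t-test after adjustment. For miR-210-3p against NC (2 called), there were 6 with normexp background correction, 6 when centred on the median of kept probes, 6 among genes detected on all 8 arrays, 4 with quantile normalization, 4 with a floor at the dimmest detected signal and 5 of 15 probes, and 0 without the detection filter, with only the groups compared, under the 2-fold rule and by the methods' t-test. For miR-874-3p against NC (0 called), 1 was called with normexp. For miR-629-3p against miR-210-3p (3 called), there was 1 without the filter and 0 under the 2-fold rule. For miR-629-3p against miR-874-3p (3 called), there were 6 with normexp, 5 when centred on the median, 5 of 15 probes, 1 without the filter, and 0 with only the groups compared, under the 2-fold rule and by the t-test. For miR-210-3p against miR-874-3p (1 called), there were 2 with normexp and 2 probes, and 0 without the filter, with only the groups compared, under the 2-fold rule and by the t-test. The F test (7 called) gave 2 without the filter and 11 of 15 probes.

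Leaving out 1 array gave 2 to 8 for miR-629-3p against NC, 0 to 5 for miR-210-3p against NC, 0 to 3 for both other comparisons of miR-629-3p, 0 to 1 for miR-210-3p against miR-874-3p and 2 to 8 for the F test, where the spread of a group left with a lone array is taken from the other groups. Samples with equal replicate numbers showed no sign of pairing: the correlation of their deviations ran from -0.11 to 0.03 over 6 pairs of groups. Such a correlation over all genes cannot exclude that they were paired. With the replicate block 3 genes were called for miR-629-3p against NC, 1 for miR-210-3p against NC, 0 for miR-210-3p against miR-874-3p and 3 by the F test. The authors' deposited values, outlier spots kept and the other probes of HLA-E and HLA-C changed no count by over 1.5 times. No called difference from NC changed sign in any of the 23 alternatives. Over all genes, 65.3% of 3675 calls were higher with miR-629-3p and 71.5% of 1437 with miR-210-3p, against 47.8% and 52.4% when centred on the median. Without the filter 9724 and 45 genes were called, with only the groups compared 2562 and 219, with the block 2152 and 513, and by the methods' t-test 0 and 3. The causes of these changes were not tested.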
